A study of Homo sapiens with 9 samples.

Results

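Integrins are adhesion receptors made of an alpha and a beta subunit that pair inside the cell and reach the surface together. On lymphocytes they hold the cell to vessel walls, to matrix and to other cells, and they sit in an inactive form until signals from inside the cell switch them on. The beta7 subunit pairs with alpha4 to bind MADCAM1 on gut vessels, and with alphaE, the product of ITGAE, to bind E-cadherin on epithelium. The beta1 subunit pairs with alpha4, alpha5 and alpha6 to bind VCAM1, fibronectin and laminin, and beta2 pairs with alphaL to form LFA-1, the receptor of the ICAM proteins.

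This account follows 10 genes of that system in ALL-SIL, a human T-cell acute lymphoblastic leukaemia line: the beta subunit genes ITGB7, ITGB1 and ITGB2, the alpha subunit genes ITGA4, ITGAE, ITGAL, ITGA5 and ITGA6, and the ligand genes ICAM2 and ICAM3. They were picked by symbol from the 58096 gene IDs counted, and all 10 were among the 16072 genes with enough reads to test, with at least 85 reads in every library. ITGB7 was chosen because it was already known to be lower with both TLX1 siRNAs in these libraries, so its differences from the control are given as a description, with no test. The other 9 were added as its partners and relatives, also with results of these libraries already known, so their tests, that of ITGA6 included, are not independent of the choice.

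The cells were electroporated with siRNA s46 against TLX1, siRNA s47 against TLX1 or a scrambled siRNA, and total RNA was taken at 24 h, with 3 libraries per group and 9 in all. A dose of 400 nM is labelled for the scrambled siRNA; none is labelled for s46 or s47. TLX1 encodes a homeodomain protein whose misplaced expression drives some T-cell leukaemias, and all groups are the same single line, with no group left without electroporation. The labels do not say if the replicates were separate cultures; p-values therefore measure only the spread among these libraries, which may be technical.

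Sense gene reads numbered 21134650 to 33393740 per library. Scrambled replicate 1 stood apart: 14.4% of its reads mapped to several places, against 6.36% to 7.34% in the other 8 libraries, and it correlated least with its own group (lowest r 0.967 across genes, which are not replicates). TLX1 itself ranged over 63.5 to 87.3 CPM (reads scaled to a common library size by TMM) in the 6 TLX1 siRNA libraries, against 171.3 to 198.1 CPM in the 3 scrambled ones. All 16 T-lineage markers looked for reached 10 reads; their summed level was 2216 to 2360 CPM with s46, 2266 to 2338 CPM with s47 and 2444 to 2549 CPM with scrambled siRNA, TLX1 included. TLX1 is the target of both siRNAs, so its own fall is part of the lower sum. The markers went both ways: 7 had a log2 fold change above 0 for the mean of both siRNAs and 9 below, TLX1 among the 9. PTPRC averaged 529 CPM with the TLX1 siRNAs and 677 CPM with scrambled siRNA, while CD3D averaged 383 and 297 CPM. Of the myeloid, erythroid and epithelial markers 0 reached 10 reads. Among 5 B-lineage markers 3 did and CD22 was at 0, with a summed level of 5.21 to 6.67 CPM with s46, 5.52 to 9.74 CPM with s47 and 5.47 to 10.6 CPM with scrambled siRNA. Among 5 stromal and endothelial markers PECAM1 and PDGFRB did and CDH5 was at 0, with a summed level of 123.1 to 135 CPM with s46, 121 to 138 CPM with s47 and 105 to 110.4 CPM with scrambled siRNA. Most of that sum was PECAM1, which is also in the list of adhesion receptors below, at 112 CPM with the TLX1 siRNAs and 92.1 CPM with scrambled siRNA. PDGFRB was at 15.1 CPM in both. In bulk RNA, fewer cells that express a gene and less of its RNA per cell cannot be told apart, and this holds for every difference given here. The part of scrambled replicate 1 and of the marker differences in the results was not tested beyond the values given without that library.

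The LFA-1 alpha chain and both chains of alpha4beta1 led the order of transcript levels in ALL-SIL, and ITGB7 came last. Levels were compared between genes as CPM per kb of exon. ITGAL was highest, at 163 CPM per kb ± 29.3 (SD, n = 9), above 98.7% of 11164 protein-coding genes tested. ITGA4 followed at 82.4 ± 17.8 CPM per kb and ITGB1 at 51.4 ± 5.62 CPM per kb (SD, n = 9 each).

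ITGB2, the partner of ITGAL, stood at 21.2 ± 3.11 CPM per kb and ICAM3, a ligand of LFA-1 found on leukocytes, at 20.5 ± 0.987 CPM per kb; the ranges of these neighbours overlapped, with ITGB2 above ICAM3 in 4 of 9 libraries. ICAM2, another LFA-1 ligand, was at 11.2 ± 1.22 CPM per kb and ITGA5, the fibronectin receptor alpha chain, at 7.56 ± 0.646 CPM per kb. ITGAE reached 4.71 ± 0.442 CPM per kb and ITGA6, the laminin receptor alpha chain, 3.69 ± 1.06 CPM per kb, with overlapping ranges and ITGAE above ITGA6 in 8 of 9 libraries. ITGB7 was last at 1.12 ± 0.565 CPM per kb, above 17.2% of coding genes, and below ITGA6 in 8 of 9 libraries. The ranges of each other pair of neighbours in this order lay apart.

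**Figure D1:**
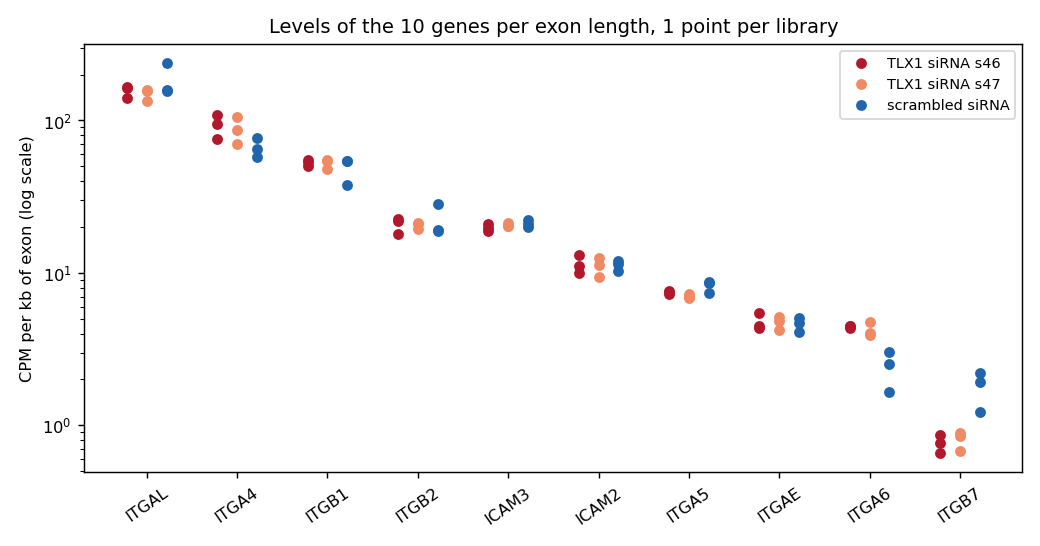
Level of each of the 10 genes in CPM per kb of exon (log scale), 1 point per library, coloured by siRNA (s46, s47, scrambled, left to right within a gene). ITGAL tops the order and ITGB7 ends it; the 3 scrambled points lie above the siRNA points for ITGB7 and below them for ITGA6.

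ITGB7 (ENSG00000139626.15; chromosome 12, 53191318 to 53207307, minus strand, GRCh38) was lower with both TLX1 siRNAs. Its level was 3.85, 2.95 and 3.44 CPM in s46 replicates 1, 2 and 3 and 4.01, 3.02 and 3.79 CPM in s47 replicates 1, 2 and 3, against 9.86, 5.46 and 8.63 CPM in scrambled replicates 1, 2 and 3. All 6 TLX1 siRNA libraries lay below all 3 scrambled libraries, and the scrambled libraries spread far more than the siRNA libraries did. These levels rest on few reads, 85 to 114 per TLX1 siRNA library and 162 to 235 per scrambled library.

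The log2 fold change of ITGB7 was -1.18 ± 0.20 (SE, edgeR) for the mean of both siRNAs, 2.27-fold lower, and it was -1.22 ± 0.24 with s46 and -1.14 ± 0.24 with s47. Both siRNAs share the same scrambled libraries. Without scrambled replicate 1 the log2 fold change was -1.003, and without the 3 libraries of number 1 it was -1.09. The choice of ITGB7 did not use the comparison between the siRNAs, and there s46 minus s47 was -0.08 ± 0.25 on the log2 scale (SE; 95% interval -0.56 to 0.41; edgeR adjusted p 1).

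The 3′ end of ITGB7 overlaps ZNF740, a zinc finger gene on the plus strand, between positions 53191318 and 53195141. Reads on the strand opposite ITGB7 made up 30.2% to 59.2% of its stranded reads. Its count without regard to strand was 23.8% to 56.8% of its sense count. ITGA4, which overlaps no other annotated gene, had 0.0612% to 0.162% of its stranded reads on the opposite strand. Over all genes, overlapping ones included, the share was 5.22% to 6.32% per library. ZNF740 itself was at 78.6 CPM ± 4.03 (SD, n = 6) with the TLX1 siRNAs and 82.7 ± 5.46 (SD, n = 3) with scrambled siRNA (log2 fold change -0.07 ± 0.09 SE, edgeR adjusted p 0.695). Unstranded counts gave a log2 fold change of -1.20 for ITGB7.

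ITGA6 (ENSG00000091409.14; chromosome 2, 172427354 to 172506282, plus strand, GRCh38) went the other way. Its level was 29.5, 28.4 and 29.1 CPM in s46 replicates 1, 2 and 3 and 30.9, 26.3 and 25.7 CPM in s47 replicates 1, 2 and 3, against 10.8, 16.5 and 19.6 CPM in scrambled replicates 1, 2 and 3. Every TLX1 siRNA library lay above every scrambled library, and scrambled replicate 1 was the lowest of the 9.

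**Figure D2:**
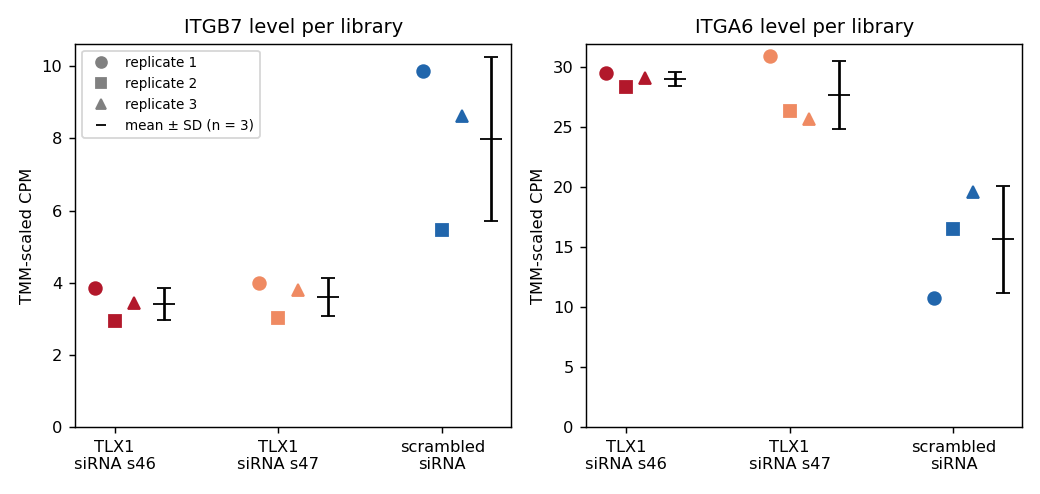
TMM-scaled CPM of ITGB7 (left) and ITGA6 (right) in each library, by siRNA, with the mean ± SD of each group (n = 3); marker shape gives the replicate number. ITGB7 lies at 2.95 to 4.01 CPM with the TLX1 siRNAs and 5.46 to 9.86 CPM with scrambled siRNA; ITGA6 lies at 25.7 to 30.9 CPM with the TLX1 siRNAs and 10.8 to 19.6 CPM with scrambled siRNA.

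ITGA6, whose product pairs with beta1 to bind laminin, rose by 0.85 ± 0.17 on the log2 scale for the mean of both siRNAs (SE, edgeR adjusted p 0.0395), 1.81-fold, in 6 of 6 siRNA libraries. It was the 1 called gene among the 9 members other than ITGB7; of all genes tested, 0.566% were called in either direction and 0.411% were called higher. Of the 10 members, ITGB7 and ITGA6 had TLX1 siRNA and scrambled libraries that did not overlap, as did 8.12% of all genes tested.

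In the main edgeR fit the call for ITGA6 was close to the threshold. Leaving out any 1 of the 6 TLX1 siRNA libraries ended it (adjusted p 0.0719 to 0.107, log2 fold change 0.81 to 0.88), as did leaving out scrambled replicate 3 (adjusted p 0.0544, log2 fold change 1.05), while it held without scrambled replicate 1 (adjusted p 0.0264, 0.65) and without scrambled replicate 2 (0.0253, 0.90). It also ended with library totals in place of TMM (0.0612, 0.79), with unstranded counts (0.0547, 0.88) and without the 3 libraries of number 1 (0.0874, 0.60). In edgeR it held with DESeq2 size factors (adjusted p 0.0388), a minimum of 1 CPM in 3 libraries (0.0437), a term for replicate number (0.0436) and no filter on low counts (7.2e-06). Some of these settings called far more of all genes than the 91 of the main fit. The number was 876 with no filter, 222 with the replicate term and 1650 without scrambled replicate 2. It was 22 without scrambled replicate 3, where the ITGA6 call ended. It held with limma-voom (adjusted p 0.0320) and with DESeq2 (0.00018), which called 3.37% of all genes with an adjusted p.

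**Figure D3:**
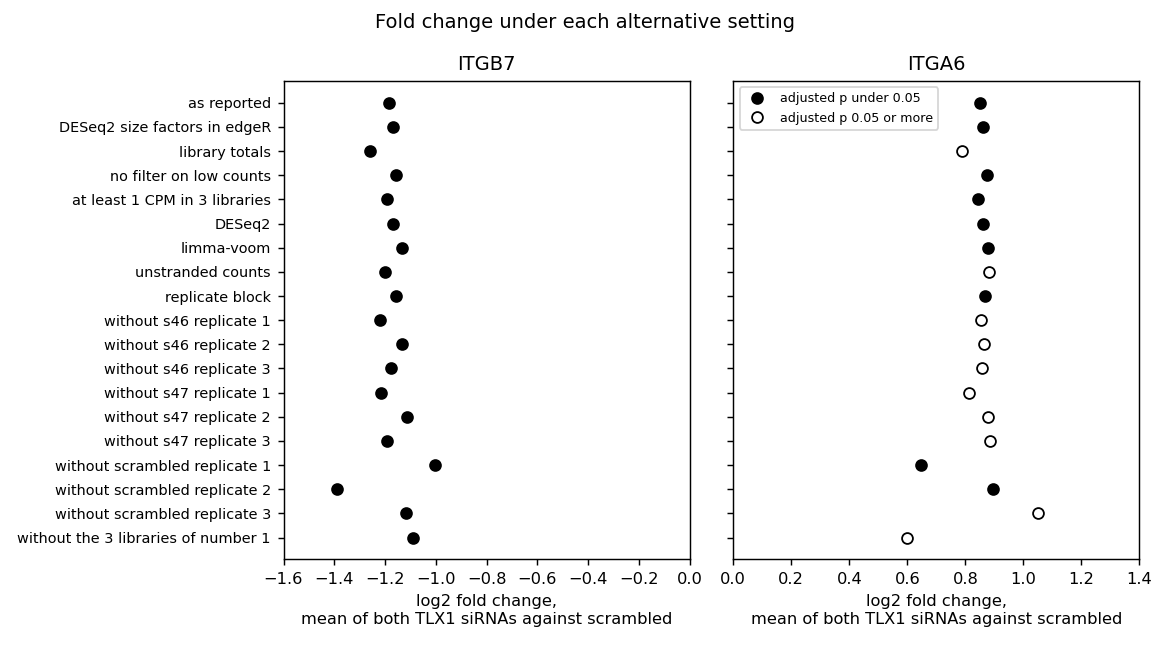
Log2 fold change of ITGB7 (left) and ITGA6 (right) for both TLX1 siRNAs averaged against the scrambled group, as reported and under each alternative; for ITGA6, filled points have an edgeR, DESeq2 or limma-voom adjusted p under 0.05 and open points do not. ITGB7 stays between -1.39 and -1.003 and ITGA6 between 0.60 and 1.05.

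The sequences around the starts of these 2 genes are shown because they were the members whose siRNA and scrambled libraries did not overlap. Each window runs from 250 bases before to 50 bases after the start in RefSeq (GRCh38.p14), on the strand of the gene, and 7 of the 10 members matched an entry. Capitals mark matches, on either strand, to 3 kinds of short motif: TGTGGT, a core bound by RUNX factors; AGGAAG, a core bound by ETS factors; and TAATTG or TAATTA, cores bound by homeodomains. No motif overlaps another in these windows. The ITGB7 window, chr12:53207202-53207501 on the minus strand, and the ITGA6 window, chr2:172427086-172427385 on the plus strand, read as follows.
ITGB7: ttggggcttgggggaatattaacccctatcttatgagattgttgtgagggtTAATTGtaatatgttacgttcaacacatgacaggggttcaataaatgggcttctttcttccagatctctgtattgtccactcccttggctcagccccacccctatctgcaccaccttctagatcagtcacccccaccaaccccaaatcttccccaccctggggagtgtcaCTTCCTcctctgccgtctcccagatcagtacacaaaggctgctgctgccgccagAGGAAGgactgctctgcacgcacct
ITGA6: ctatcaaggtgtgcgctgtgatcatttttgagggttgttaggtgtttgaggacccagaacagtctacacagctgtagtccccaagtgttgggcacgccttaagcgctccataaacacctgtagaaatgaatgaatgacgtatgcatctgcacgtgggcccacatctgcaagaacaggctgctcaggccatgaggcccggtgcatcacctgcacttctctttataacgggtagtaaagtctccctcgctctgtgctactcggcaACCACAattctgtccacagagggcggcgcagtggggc

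The ITGB7 window held TAATTG at position -199 from the start and the ETS core at positions -29 and 26. The ITGA6 window held the RUNX core at position 14 after the start, and a RefSeq window of a later ITGA6 start shares that match. Of 35116 RefSeq windows of this length, 13.1% held the RUNX core, 33.65% the ETS core, 7.38% TAATTG and 4.84% TAATTA. A match is a string of letters and not a measured binding site.

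The other beta chains did not pass the test. ITGB1 was at 317 CPM ± 17.2 (SD, n = 6) with the TLX1 siRNAs and 293 ± 57.0 (SD, n = 3) with scrambled siRNA (log2 fold change 0.11 ± 0.13 SE, edgeR adjusted p 0.646). Its 6 siRNA libraries, at 289.9 to 332.7 CPM, overlapped scrambled replicates 2 and 3, at 325.5 and 327.1 CPM, while scrambled replicate 1 stood at 227.5 CPM. ITGB2 was at 141 ± 11.3 CPM (SD, n = 6) and 150.2 ± 37.1 CPM (SD, n = 3), with a log2 fold change of -0.09 ± 0.14 (SE, edgeR adjusted p 0.745). Without scrambled replicate 1 the log2 fold change was -0.04 for ITGB1 and 0.13 for ITGB2, so the sign of both turned without that library.

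Among the alpha partners of beta7, ITGA4 was at 863, 601 and 747 CPM in s46 replicates 1, 2 and 3 and at 831, 554 and 686 CPM in s47 replicates 1, 2 and 3, against 512, 456 and 609 CPM in scrambled replicates 1, 2 and 3. All 6 siRNA libraries lay above the scrambled mean, but s46 replicate 2 and s47 replicate 2 lay within the scrambled range. The log2 fold change of 0.44 ± 0.16 did not pass (SE, edgeR adjusted p 0.215); with no filter on low counts its adjusted p was 0.0297. ITGAE was at 31.6 ± 3.10 CPM (SD, n = 6) with the TLX1 siRNAs and 30.8 ± 3.15 CPM (SD, n = 3) with scrambled siRNA, a log2 fold change of 0.04 ± 0.12 (SE, 95% interval -0.20 to 0.27, edgeR adjusted p 0.891). On the opposite strand lay 9.67% to 17.4% of the stranded reads of ITGAE; HASPIN, a kinase gene, and antisense genes are annotated on that strand inside ITGAE, and which of them the reads came from was not tested.

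ITGAL had its highest value in scrambled replicate 1, at 1532 CPM, and ranged over 873 to 1079 CPM in the 6 siRNA libraries and 1003 to 1030 CPM in scrambled replicates 2 and 3. Its log2 fold change was -0.26 ± 0.14 (SE, edgeR adjusted p 0.350), and -0.03 without scrambled replicate 1. ITGA5 was at 54.8 ± 2.38 CPM (SD, n = 6) with the TLX1 siRNAs and 62.2 ± 5.15 CPM (SD, n = 3) with scrambled siRNA (log2 fold change -0.18 ± 0.10 SE, edgeR adjusted p 0.322). The groups overlapped for both genes. Over the 9 members other than ITGB7 the median log2 fold change was 0.003, with 5 above 0 and 4 below, against -0.03 over all genes tested.

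Neither ligand passed the test. ICAM2 was at 36.5 ± 4.65 CPM (SD, n = 6) with the TLX1 siRNAs and 36.4 ± 2.95 CPM (SD, n = 3) with scrambled siRNA, and its log2 fold change was 0.003 ± 0.13 (SE, 95% interval -0.25 to 0.25, edgeR adjusted p 0.992). ICAM3 was at 59.7 ± 2.61 CPM and 62.1 ± 3.36 CPM in the same groups, with a log2 fold change of -0.06 ± 0.09 (SE, 95% interval -0.24 to 0.13, edgeR adjusted p 0.770). Both overlap a gene on the other strand. The count without regard to strand was 36.7% to 43.9% of the sense count for ICAM2 and 18.4% to 24.1% for ICAM3.

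**Figure D4:**
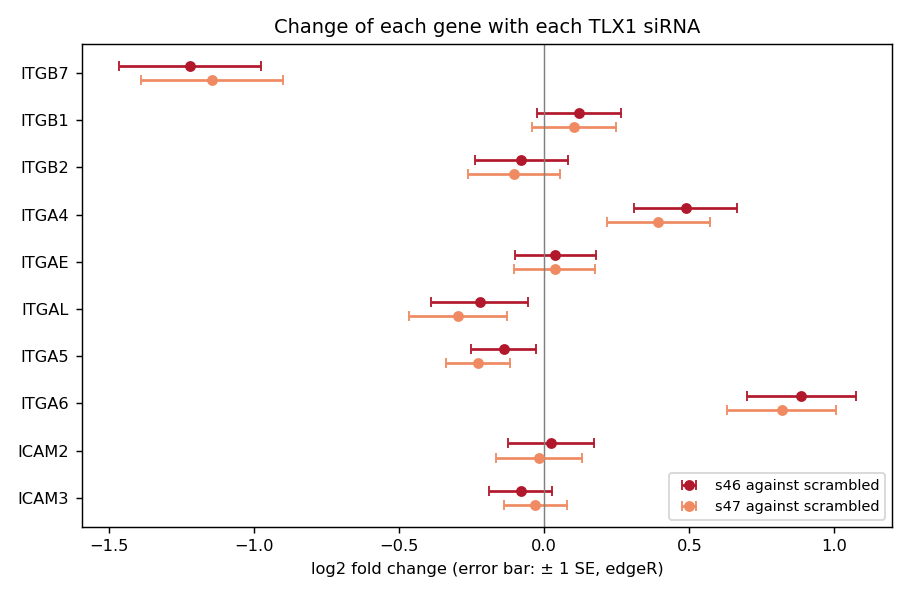
Log2 fold change of each gene with siRNA s46 and with siRNA s47 against the same 3 scrambled libraries, with ± 1 SE from edgeR; beta subunits stand at the top, then alpha subunits, then ligands. With s46 and s47, ITGB7 is at -1.22 and -1.14 and ITGA6 at 0.89 and 0.82, and the other 8 genes lie between -0.30 and 0.49.

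With each siRNA alone, 0 of the 9 members other than ITGB7 passed (edgeR; 2 of 9, ITGA4 and ITGA6, had an unadjusted p under 0.05 with each; DESeq2 called 1 and limma-voom 0 with each siRNA). Of all genes, edgeR called 0.174% with s46 and 0.330% with s47, DESeq2 1.41% and 1.37%, and limma-voom 0.168% and 0.330%, while 11.9% with s46 and 12.3% with s47 had an unadjusted p under 0.05. ITGA6 had log2 fold changes of 0.89 ± 0.19 with s46 (SE, edgeR adjusted p 0.101) and 0.82 ± 0.19 with s47 (0.120). ITGA4 had 0.49 ± 0.18 (0.403) and 0.39 ± 0.18 (0.400). Between s46 and s47, 0 of the 10 members and 0% of all genes were called by edgeR, with 0 members and 113 genes (0.703%) at an unadjusted p under 0.05. Neither DESeq2 nor limma-voom called a member. Evenly spread p-values would put a far larger share of genes under 0.05, so the edgeR comparison was a cautious one. Its lack of calls does not show that the siRNAs acted alike. The largest difference between the siRNAs among the members was 0.09 ± 0.18 (log2, SE) for ITGA4, with a 95% interval of -0.25 to 0.44.

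Because partners pair at the protein level, the ratio of an alpha to a beta transcript was also taken within each library, where no scaling between libraries enters. The ITGAL to ITGB2 log2 count ratio was 2.85, 2.78 and 2.89 in s46 replicates 1, 2 and 3 and 2.81, 2.83 and 2.72 in s47 replicates 1, 2 and 3, against 2.99, 2.97 and 2.99 in scrambled replicates 1, 2 and 3. All 6 siRNA libraries lay below all 3 scrambled ones, which differed little from each other although scrambled replicate 1 had far more of both transcripts. The ratio fell by 0.17 on the log2 scale in the TLX1 siRNA libraries (exact permutation test over 84 splits, two-sided p 0.0119, the smallest this design allows, adjusted p 0.0238 over 4 pairs). How often the ratios of other gene pairs separate the groups in this way was not tested, for this pair or the next. Of single genes tested, 8.12% had siRNA and scrambled libraries that did not overlap, so such a separation is not rare in these libraries.

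The ITGA6 to ITGB1 log2 ratio averaged -3.49 ± 0.09 with TLX1 siRNA (SD, n = 6) and -4.25 ± 0.17 with scrambled siRNA (SD, n = 3), a rise of 0.77 (exact permutation test, two-sided p 0.0119, adjusted p 0.0238). ITGA6 alone already lay apart between the groups, while those of ITGB1 overlapped. This ratio therefore repeats the ITGA6 difference and is not a separate test of it. The ITGA5 to ITGB1 ratio averaged -2.53 ± 0.10 and -2.22 ± 0.37 in the same groups, and the difference of -0.31 did not pass (exact permutation test, p 0.0476, adjusted p 0.0635); it was -0.11 without scrambled replicate 1. The ITGA4 to ITGB1 ratio averaged 1.15 ± 0.19 and 0.85 ± 0.34, and the difference of 0.30 did not pass either (exact permutation test, p 0.119, adjusted p 0.119). Permuted within replicate number, ITGA4 to ITGB1, ITGA6 to ITGB1 and ITGAL to ITGB2 each had an adjusted p of 0.0494 (exact permutation test). Each was at the smallest p that those 27 splits allow, 0.0370. In that test ITGA5 to ITGB1 had an adjusted p of 0.111. The ITGA4 to ITGB1 difference turned on single scrambled libraries: it was 0.46 and passed without replicate 1 (exact permutation test, adjusted p 0.0476), and was 0.12 without replicate 2 (exact permutation test, adjusted p 0.464). In the same test the ITGA5 to ITGB1 ratio passed without replicate 2 of s46, of s47 or of the scrambled group (adjusted p 0.0476 each, exact permutation test). Without scrambled replicate 3 the differences were -0.16 for ITGAL to ITGB2 and 0.86 for ITGA6 to ITGB1, both at the smallest p that the 28 splits left allow, 0.0357 (exact permutation test, adjusted p 0.0714), so the loss of these calls says nothing about their stability. The same floor of 0.0357 held without scrambled replicate 1 or 2, where the adjusted p was 0.0476 only because several pairs shared that floor. The gain of a call there says nothing about stability either.

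Per exon length, ITGA4 exceeded ITGB7 by 103-fold to 127-fold in the TLX1 siRNA libraries and 29.5-fold to 47.4-fold in the scrambled ones. ITGAE exceeded ITGB7 by 5.04-fold to 7.06-fold in the TLX1 siRNA libraries and 1.87-fold to 4.15-fold in the scrambled ones. ITGB7 amounted to 0.0131 to 0.0163 of ITGB1 per length in the TLX1 siRNA libraries and 0.0225 to 0.0581 in the scrambled ones. These 3 ratios hold ITGB7 and are given with no test. In all 9 libraries the beta7 transcript was below those of both its alpha partners per length.

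**Figure D5:**
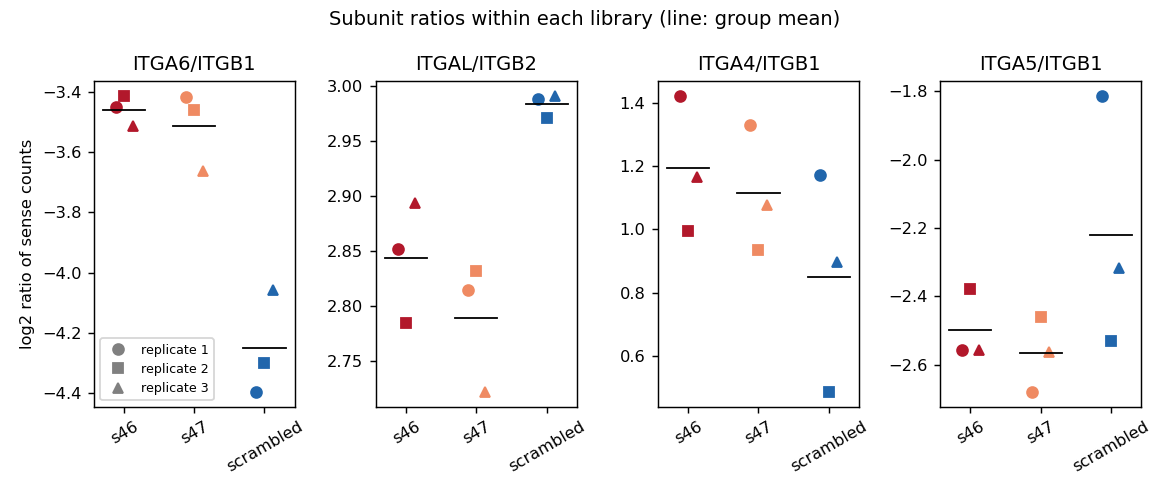
Log2 ratio of sense counts for 4 subunit pairs within each library, by siRNA; marker shape gives the replicate number and the line the group mean. For ITGA6 to ITGB1 all TLX1 siRNA points lie above the scrambled ones, for ITGAL to ITGB2 all lie below, and for the other pairs the groups overlap.

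Next, 3 words of 7 bases were sought in the 3′ untranslated regions (UTRs) of the members. The words were chosen after values of these libraries were seen, and they were not tested against the fold changes here. Of the 10 members 0 carried any of these 3 words in a 3′ UTR of a coding transcript, ITGB7 and ITGA6 included. Of 11056 tested genes with such a UTR, 5.70% carried GCAGTAC, 9.88% CAGTACA and 16.9% AATCACT. The longest UTR was 376 bases for ITGB7 and 2162 bases for ITGA6, and ICAM3 had the shortest, at 81 bases.

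The rest of the integrin system was read from 8 lists with 122 genes, of which 89 could be tested; 0 were called higher and 1 lower by edgeR, and 30 had an unadjusted p under 0.05. Of all genes tested, 0.566% were called by edgeR and 17.8% had an unadjusted p under 0.05, and the list counts that follow are to be read against these shares. DESeq2 called 3 of the list genes higher and 4 lower, and 3.37% of all genes with an adjusted p; limma-voom called 0 higher and 1 lower, and 0.610% of all genes. The called gene was RXRA, the nuclear receptor that partners retinoic acid receptors, which are known to induce alpha4beta7 in activated T cells; it was at 9.76 ± 2.02 CPM (SD, n = 6) with the TLX1 siRNAs and 26.3 ± 2.58 CPM (SD, n = 3) with scrambled siRNA (log2 fold change -1.43 ± 0.16 SE, edgeR adjusted p 0.00246). RXRA was already known to be lower here. In its list of retinoid and gut homing genes 0 of 10 tested were higher and 1 was lower, with a median log2 fold change of -0.47; RXRB had -0.17 ± 0.11 and RARA -0.83 ± 0.21, neither past the test (edgeR adjusted p 0.392 and 0.114). DESeq2 called 3 of this list lower, RXRA, RARA (adjusted p 0.0141) and RARG (0.0116), and limma-voom called 1, and 4 of the 10 had an unadjusted p under 0.05 by edgeR.

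Other integrin subunits were sparse. Of 13 other alpha genes 6 could be tested and of 5 other beta genes 2, and 0 were called (edgeR, DESeq2 and limma-voom; 0 with an unadjusted p under 0.05). ITGA2, a collagen receptor alpha chain, was at 48.4 CPM with the TLX1 siRNAs and 54.7 CPM with scrambled siRNA (log2 fold change -0.18 ± 0.10 SE), and ITGA1, another, at 12.2 and 9.45 CPM (0.37 ± 0.21 SE). ITGB6 and ITGB3 were below 1 CPM, with -0.69 ± 0.44 and 0.20 ± 0.59. Of 17 other ligands 6 could be tested and 0 were called by any of the 3 tools: JAM3, a junctional adhesion molecule, had 0.28 ± 0.23 and ICAM1, the main LFA-1 ligand, -0.26 ± 0.15 (log2 fold change, SE). The ligands of beta7 were near 0: MADCAM1 reached at most 10 reads in a library and CDH1 at most 4.

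Of 22 genes that switch integrins on or off, 20 were tested and 0 were called by edgeR, with 7 at an unadjusted p under 0.05 and a median log2 fold change of -0.16. FLNA, a filamin that binds beta tails, had -0.42 ± 0.17 and DOCK2, a Rac exchange factor, -0.004 ± 0.09 (SE; edgeR adjusted p 0.242 and 0.986). Picked after their values were seen, TLN1, the talin that binds beta tails to activate integrins, had 0.64 ± 0.16 (edgeR adjusted p 0.112), RASGRP2, the Rap exchange factor of this pathway, 0.72 ± 0.15 (0.0556), and FERMT3, the kindlin of blood cells, -0.45 ± 0.11 (0.0992). DESeq2 called these 3 genes, and TLN1 passed without scrambled replicate 1 (edgeR adjusted p 0.00946, 0.85).

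Of 25 adhesion signalling genes 20 were tested and 0 called by edgeR (9 with an unadjusted p under 0.05, 0 by DESeq2 and limma-voom); RHOA had 0.06 ± 0.10 and CDC42 0.11 ± 0.12 on the log2 scale. Of 16 tetraspanins and other adhesion receptors 15 were tested and 0 called by edgeR (5 with an unadjusted p under 0.05, 1 by DESeq2); SPN had -0.06 ± 0.16 and CD47 0.12 ± 0.10. Of 11 TGF-beta pathway genes, a pathway known to induce ITGAE, 10 were tested and 0 called by edgeR (5 with an unadjusted p under 0.05, 0 by DESeq2 and limma-voom); SMAD2 had 0.18 ± 0.11 and SMAD4 0.04 ± 0.09, and the median of the list was -0.36.

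The genes whose pattern over the 9 libraries was most like that of ITGB7 were sought among 9847 other protein-coding genes with a mean log2 CPM of at least 1, by the root mean square difference of log2 CPM after each gene was centred on its own mean. TLR5, a Toll-like receptor for flagellin, was nearest at 0.193, followed by RASAL3, a Ras GTPase-activating protein of T cells, at 0.221, IQCN at 0.225, PATL2 at 0.241, ASL, an enzyme of the urea cycle, at 0.262, and CATSPER2, a sperm calcium channel subunit, at 0.275; the median over all compared genes was 0.630. TLR5 was at 7.89 to 12.4 CPM in the TLX1 siRNA libraries and 13.2 to 24.3 CPM in the scrambled ones. Among the members, ITGAL was nearest to ITGB7 at 0.485 and ITGA6 farthest at 1.03. This measure holds the difference that chose ITGB7, so it is a description only.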

How the data were processed

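Whole-number counts of reads per gene, not normalized, were deposited for each library. The build is GRCh38, per the submitters' processing notes; aligner, counter and annotation: not given in the sources used here. Libraries were ribosome-depleted and stranded, per the labels' protocols. The sense column was used. The 4 opening lines hold reads assigned to no gene and were dropped; reads in genes were 39.9% to 59.9% of a library. Of 58096 IDs, 57488 matched GENCODE 29, which gave symbols, coordinates, exon lengths and 3′ UTRs.

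Genes were filtered with filterByExpr (minimum count 10), scaled by TMM and fitted in edgeR 4.0.16 under R 4.3.3 (quasi-likelihood F test, robust) in 1 model of 9 libraries with group as the only term; Benjamini-Hochberg adjustment ran over 16072 genes, threshold 0.05. SEs came from the F statistics, and 95% intervals are normal intervals from those SEs. Like genes used log2 CPM with a prior count of 2. On counts simulated for the mean of both siRNAs, with 15708 genes tested, the test recovered 67 of 100 genes set to a 2-fold change and 33 of 100 set to 1.5-fold, with 11 false calls. The false calls were a larger share of all calls than the threshold of 0.05. The simulation gave each gene the same spread in all groups, with no effect of replicate number and no library that stood apart. Recovery and false calls in the real libraries may therefore differ. Alternatives included DESeq2 1.42.0 and limma-voom (limma 3.58.1).

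Members and lists were chosen with earlier results of these data known. Named genes are the members, the 6 genes most like ITGB7, called list genes and the 2 uncalled genes of each list with the highest CPM. Outside that rule, TLX1 and the marker genes were named as checks, overlapping genes for strand, and MADCAM1 and CDH1 as ligands of beta7. TLN1, RASGRP2, FERMT3, RARG, ESPL1, SOAT2 and CSAD were chosen after their values were seen.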

Additional observations from a re-analysis of the deposited data

How the results depend on the processing

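The log2 fold change of ITGB7 kept its sign under all 18 alternatives, from -1.39 to -1.003, both of them with 1 scrambled library left out. The number of called members other than ITGB7, 1 as reported, was 0 with library totals, unstranded counts or no libraries of number 1, 2 with no filter on low counts, and 0 to 1 with 1 library left out. With s46 or s47 alone it was 0, but 1 with DESeq2 and 1 with no filter, and 0 with any library left out; between the siRNAs it was 0 throughout. All genes called numbered 91, against 876 with no filter, 458 with DESeq2, 222 with the replicate block and 22 to 1650 with 1 library left out.

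Small differences changed sign. With library totals ITGAE was at -0.0276 and ICAM2 at -0.0659; ICAM2 was also at -0.00621 with a minimum of 1 CPM in 3 libraries and at -0.00589 with the replicate block, and ICAM3 at 0.0723 with unstranded counts. Without the libraries of number 1 the values were -0.0160 for ITGAE, -0.0619 for ITGB1, 0.10 for ITGB2 and 0.0145 for ICAM3. With 1 library left out ITGAE ranged from -0.0384 to 0.11, ITGB1 from -0.0405 to 0.20, ITGB2 from -0.19 to 0.13 and ICAM2 from -0.0563 to 0.0592. The cause was not tested.

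With 1 library left out, the ratio differences ranged from 0.12 to 0.46 for ITGA4 to ITGB1, -0.47 to -0.11 for ITGA5 to ITGB1, 0.69 to 0.86 for ITGA6 to ITGB1 and -0.18 to -0.15 for ITGAL to ITGB2. Without the libraries of number 1 the differences for the last 2 pairs were 0.67 and -0.17, where the 15 splits left allow no p under 0.0667. Permuting within replicate number, as a replicate block, left the ITGA4 to ITGB1 difference at 0.30 with an adjusted p of 0.0494 (exact permutation test). ITGA6 to ITGB1 and ITGAL to ITGB2 had the same adjusted p in that test, and ITGA5 to ITGB1 had 0.111. The 27 splits within number allow no p under 0.0370.

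The replicate numbers were not taken as pairs, so the main p-values leave out any effect shared by a number. Deviations from group means correlated at -0.03 to 0.44 between libraries of the same number. Between libraries of different groups and numbers they correlated at -0.31 to 0.17, and all 9 libraries correlated best with a library of their own number. With the replicate block the edgeR adjusted p was 0.0436 for ITGA6 and 0.0968 for ITGA4. The low read count of ITGB7 and 3 libraries per group limit the precision.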

Other observations

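The genes beside ITGB7 were looked at after the values were seen. Within 100 kb of it 9 other genes could be tested, and 0 were called by edgeR. Their log2 fold changes ranged from -0.77 to 0.19, and 7 of the 9 were below 0. Among all 16072 genes tested, 8597 were below 0. The lowest was RARG, a retinoic acid receptor gene that ends 3259 bases from the start of ITGB7. RARG was at 7.04 to 8.15 CPM in the 6 TLX1 siRNA libraries and 9.44 to 18.4 CPM in the 3 scrambled ones, which did not overlap (log2 fold change -0.77 ± 0.19 SE, edgeR adjusted p 0.0992; DESeq2 adjusted p 0.0116). Of all genes tested, 8.12% had siRNA and scrambled libraries that did not overlap. ESPL1, the separase gene farther along the chromosome, had -0.55 ± 0.18 (edgeR adjusted p 0.195). On the other side SOAT2 had -0.45 ± 0.26 (0.375) and CSAD -0.29 ± 0.17 (0.366). Whether the genes of this region changed together was not tested. No other gene within 100 kb of ITGA6 had enough reads to test.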
